A study of Mus musculus with 6 samples.

Results

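The genes whose products mark Paneth cells, Lyz1, Mmp7, Ang4, Habp2, Pla2g2a, Itln1 and Nupr1, were followed in stem cells of the mouse intestine that had received INT-777 or its solvent DMSO. The 7 genes were chosen by name, as markers of the cell type, out of 54838 gene IDs in the count tables, and α-defensin genes were left out because their near-identical copies lose read pairs that match several places. All 7 passed the filter on low counts, which kept 15998 genes. INT-777 is a bile acid derivative that activates the bile acid receptor TGR5, and the comparison asks how stem cells respond to it. There were 3 INT-777 libraries (30 µM) and 3 DMSO libraries, 1 of each per day. All cells came from mice of B6.129P2-Lgr5tm1(cre/ERT2)Cle/J genotype, in which an eGFP-IRES-CreERT2 cassette sits in Lgr5, and the age of the mice was not analysed here. On each day GFPhi cells from the intestines of 4 mice were pooled, sorted and set in Matrigel, and treatment began 4 h later, so each library is a pool of animals and a selection by reporter brightness. Both groups grew in crypt medium with the Notch ligand peptide JAG-1 (1 µM) and CHIR99021 (3 µM), an inhibitor of GSK3 that raises Wnt signalling. The labels of single samples put the exposure at 12 h and the series description at 16 h.

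Paneth cells lie between the stem cells at the base of small intestinal crypts and release granules of antimicrobial proteins. Their differentiation depends on Wnt signalling and on the transcription factor Sox9, and they supply signals such as Wnt3, Egf and Notch ligands to the neighbouring stem cells. Sorting by Lgr5 reporter signal is meant to keep stem cells, and Paneth cells are their direct neighbours. In bulk RNA, fewer cells of a type and less RNA per cell cannot be told apart.

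Mice carry a Paneth cell lysozyme gene, Lyz1, and a myeloid one, Lyz2, side by side on chromosome 10. The coding sequences have 447 bases each and differ at 22 of them (95.1% identity), with a longest identical run of 118 bases. A stretch of 100 coding bases (positions 33 to 132 of the coding sequence, GENCODE M21 on GRCm38, minus strand) is shown because it holds 13 of those differences, which are in capitals. Lyz1 lies there at chr10:117292707-117292806 and Lyz2 at chr10:117282111-117282210.
Lyz1 coding stretch: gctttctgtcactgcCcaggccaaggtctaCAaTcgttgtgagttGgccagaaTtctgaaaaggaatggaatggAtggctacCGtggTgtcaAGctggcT
Lyz2 coding stretch: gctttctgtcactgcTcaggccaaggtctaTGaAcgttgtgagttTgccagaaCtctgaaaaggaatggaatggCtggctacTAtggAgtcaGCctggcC
Of the 1164 windows of 100 bases along Lyz1 transcripts, 24 (2.06%) also occur in another gene, which is Lyz2. Lyz2 had 0, 1 and 9 read pairs with INT-777 on the successive days, against 3, 2 and 21 with DMSO. Habp2 shared 4.76% of its windows with Nrap and Mmp7 2.58% with AV064505, and Ang4, Pla2g2a, Itln1 and Nupr1 shared none. The 39 gene IDs named Defa, which include pseudogenes (Defa-ps), shared from 0 to 100% of their windows with another gene (median 45.6%). Many of these pseudogenes shared few or no windows, so the median does not stand for the α-defensin genes alone.

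Sequence around the RefSeq start site was available for 6 of the 7 genes (GRCm38.p6, 250 bases before to 50 after it). These windows were searched on both strands for the TCF/LEF site of Wnt signalling (CTTTGAT). They were also searched for the form of that site that ends in A instead of T, for the cAMP response element (TGACGTCA), a C/EBP-ATF element (TTGCATCA), the TATA box (TATAAA) and a consensus NF-kB site. A match is a description of the letters and not a binding site. Nupr1 held TTGCATCA with its first base at −110, a motif found in 0.895% of 32851 promoter windows. Mmp7 had 2 windows, from 2 RefSeq starts. That of the upstream start held CTTTGAT on the reverse strand at 5 bases after it, and TATAAA at −123 and −26. These motifs were found in 3.73% and 13.6% of windows. Relative to the other start the same CTTTGAT lies at −247, and that window held no TATAAA. The windows of Lyz1, Ang4, Habp2 and Itln1 held none of the 6 motifs. The matches are shown in capitals for Nupr1 (chr7:126625562-126625591, minus strand) and, for the TCF/LEF form as read on the opposite strand, for Mmp7 (chr9:7692010-7692109, plus strand). In GENCODE M21, whose Nupr1 begins further upstream, the Nupr1 stretch overlaps an exon of the gene, so it is upstream of the RefSeq start only, and the Mmp7 stretch runs into the first exon.
Nupr1 stretch: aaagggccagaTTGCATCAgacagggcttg
Mmp7 start stretch: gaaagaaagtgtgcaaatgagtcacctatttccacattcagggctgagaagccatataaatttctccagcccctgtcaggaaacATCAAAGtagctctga

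Libraries held between 45682340 and 47905087 read pairs on genes, and RNA integrity numbers ran from 8.7 to 9.6. The first principal component held 52.1% of the variance and set both day 3 libraries apart from the other days. Days 1 and 2 were nearly alike, so p-values measure the spread between these samples and may understate the spread between independent experiments.

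The levels of the 7 Paneth cell products spanned a wide range in these sorted stem cells, with Lyz1 and Itln1 among the most abundant transcripts and Habp2 below the middle of the tested genes. Levels are counts per 1e6 read pairs on genes (CPM), scaled with TMM factors, and are compared between genes per kilobase of exon. The exon length is that of protein-coding transcripts where a gene has any, while the counts cover all its annotated exons. For Nupr1 this length is 829 bases, though its transcripts together hold 2726 windows of 100 bases. The level and place of Nupr1 therefore depend on this choice. Lyz1, the lysozyme that cuts bacterial cell walls, averaged 1107 CPM per kilobase with INT-777 and 1356 with DMSO, and ranked at place 19 of 15995 genes. Itln1, intelectin, a lectin that binds microbial sugars, followed with 527 with INT-777 and 593 with DMSO, at place 67. Ang4, an angiogenin with antimicrobial activity, had 183 with INT-777 and 276 with DMSO per kilobase, at place 197. Mmp7, matrilysin, the protease that activates mouse α-defensins, had 61.3 with INT-777 and 79.1 with DMSO, at place 908. Nupr1, a small stress-responsive nuclear protein, had 14.0 and 34.4 per kilobase with INT-777 and DMSO (place 3186), and Pla2g2a, a secreted phospholipase gene, had 16.1 and 24.4 (place 3742). Habp2, a serine protease that binds hyaluronan, was the lowest at 1.69 with INT-777 and 4.22 with DMSO, at place 9723. Neighbours in this order were separated in every library except Nupr1 and Pla2g2a, whose levels overlapped. The 7 genes together held 0.241, 0.254 and 0.168% of the read pairs on genes with INT-777 (days 1 to 3), against 0.283, 0.273 and 0.268% with DMSO. The INT-777 share was below that of DMSO on each day, and Lyz1 made up between 54.0 and 65.9% of it.

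**Figure D1:**
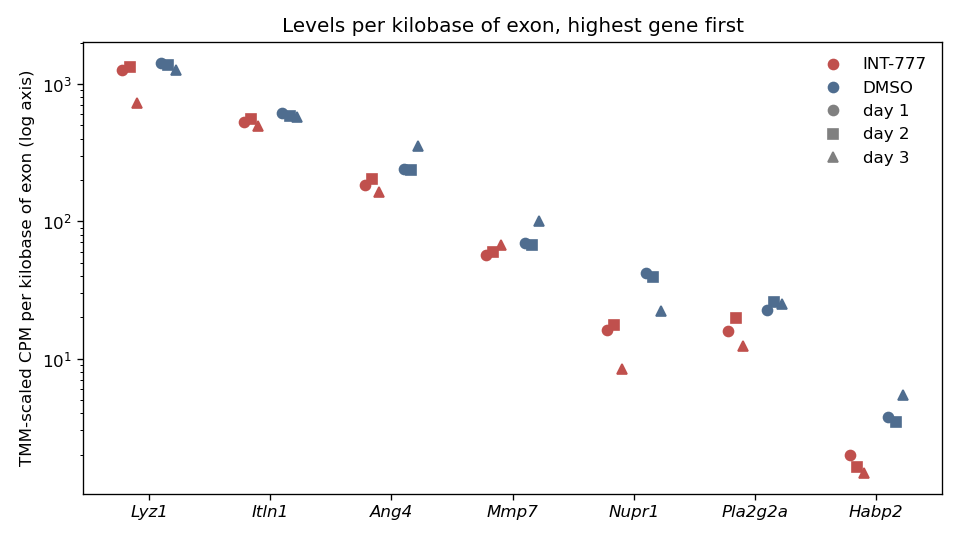
Level of each gene in TMM-scaled CPM per kilobase of exon (log axis) in the 3 INT-777 and 3 DMSO libraries, with the day as the marker shape and the genes ordered by level. Lyz1 stands at the top and Habp2 at the bottom, and the points of Nupr1 and Pla2g2a overlap.

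All 7 genes were lower with INT-777 than with DMSO on each of the 3 days, and 1 of them passed the main test, which leaves out the pairing by day. That gene was Habp2 (edgeR quasi-likelihood test, two-sided, Benjamini-Hochberg adjusted p under 0.05 over 15998 genes), against 1.45% of tested genes called in either direction and 0.763% called lower, and none was called higher (0.688% of tested genes). Of tested genes, 25.3% were lower on all 3 days. In 5 of the 7 genes every INT-777 library lay below every DMSO library, as it did in 11% of tested genes. The median log2 change, INT-777 over DMSO, was −0.59 over the 7 genes and 0.003 over all tested genes, of which 49.3% were negative. A block for the day gave 5 of the 7 called lower (10.3% of tested genes) and none higher (11.1%), namely Mmp7, Habp2, Pla2g2a, Itln1 and Nupr1. Lyz1 and Ang4 were called in neither fit. The genes were chosen with such results known, so these counts are a description.

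**Figure D2:**
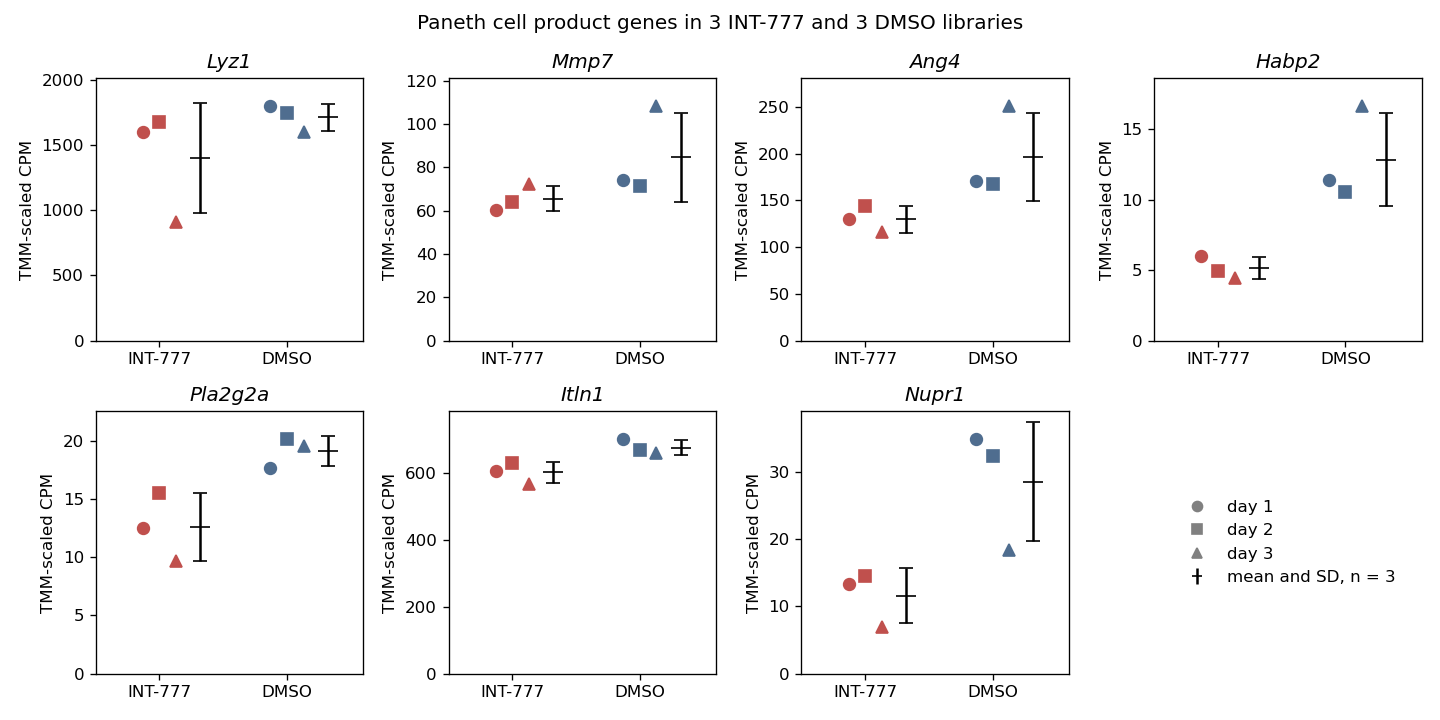
TMM-scaled CPM of each gene in the INT-777 and DMSO libraries, with 1 panel per gene, points by day and bars for the mean and SD of 3 libraries. In Ang4, Habp2, Pla2g2a, Itln1 and Nupr1 all INT-777 points lie below all DMSO points, and in Lyz1 and Mmp7 the groups overlap.

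Among the antibacterial enzymes, Lyz1 (chr10:117287797-117292868, minus strand) had 1602, 1680 and 912 CPM with INT-777 on days 1, 2 and 3, against 1795, 1745 and 1598 with DMSO. The day 3 INT-777 library stood far below the others, and INT-777 replicates 1 and 2 lay above DMSO replicate 3. The means were 1398 ± 422 with INT-777 and 1713 ± 102 with DMSO (SD, n = 3 each). The log2 change was −0.29 ± 0.23 (SE; edgeR adjusted p = 0.576), and −0.34 ± 0.21 with the day as a block (edgeR adjusted p = 0.421). Within days, the ratio of INT-777 to DMSO was 0.892, 0.962 and 0.571. Without INT-777 replicate 3 the log2 change was −0.07, and without INT-777 replicate 2 it was −0.45.

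Ang4 (chr14:51763878-51773590, minus strand) had 130, 144 and 116 CPM with INT-777 on days 1, 2 and 3, against 170, 167 and 250 with DMSO. The groups did not overlap, and day 3 gave both the lowest INT-777 and the highest DMSO value. Its means were 130 ± 14.3 and 196 ± 47.1 (SD, n = 3 each). The log2 change, −0.59 ± 0.18, passed neither without the block (edgeR adjusted p = 0.192) nor with it (edgeR adjusted p = 0.309). The ratios within days were 0.762, 0.862 and 0.462, and the log2 change was −0.39 without DMSO replicate 3. Ang4 shared no window of 100 bases with another gene. Of its relatives, Ang2 had 0 counts throughout, and Ang, which shares 219 exon bases with Rnase4, had 292, 334 and 887 read pairs with INT-777 and 518, 560 and 1935 with DMSO.

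Pla2g2a (chr4:138831857-138835186, plus strand) encodes a phospholipase that attacks bacterial membranes. C57BL/6 mice carry a frameshift in it, and GENCODE lists it as a polymorphic pseudogene, so its RNA need not stand for protein here. It had 12.6, 15.6 and 9.74 CPM with INT-777, against 17.7, 20.2 and 19.6 with DMSO, in the order of the days. All INT-777 libraries lay below all DMSO libraries. The means were 12.6 ± 2.91 and 19.1 ± 1.30 (SD, n = 3 each), and the log2 change was −0.60 ± 0.16 (edgeR adjusted p = 0.140). With the day as a block it was −0.62 ± 0.11 (edgeR adjusted p = 0.00184). The ratios within days were 0.710, 0.771 and 0.497. The gene lies inside Pla2g5 on the other strand and shares 0 exon bases with it.

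Itln1 (chr1:171518122-171535294, minus strand) varied least. It had 606, 631 and 568 CPM with INT-777, against 700, 669 and 659 with DMSO, and the groups did not overlap. The means were 602 ± 32.2 and 676 ± 21.5 (SD, n = 3 each). Its log2 change of −0.17 ± 0.06 did not pass (edgeR adjusted p = 0.243), and that of −0.17 ± 0.04 with the day as a block did (edgeR adjusted p = 0.0105). Ratios within days were 0.866, 0.944 and 0.861.

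Of the proteases, Habp2 (chr19:56287137-56320822, plus strand) had 6.02, 4.93 and 4.47 CPM with INT-777 on days 1, 2 and 3, against 11.4, 10.6 and 16.6 with DMSO. Every INT-777 library lay well below every DMSO library. The means were 5.14 ± 0.795 and 12.9 ± 3.29 (SD, n = 3 each), 2.50-fold lower with INT-777. The log2 change was −1.32 ± 0.20 (edgeR adjusted p = 0.0278), and −1.30 ± 0.17 with the day as a block (edgeR adjusted p = 0.00177). Without DMSO replicate 3 the call held (edgeR adjusted p = 0.0154), and without any other single library it was lost, with adjusted p up to 0.172. The ratios within days were 0.529, 0.467 and 0.269. Habp2 shares 268 of its exon bases with Nrap on the other strand, which had between 17 and 38 read pairs per library, so read pairs there count for neither gene.

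Mmp7 (chr9:7692090-7699585, plus strand) had 60.5, 64.1 and 72.0 CPM with INT-777, against 74.1, 71.4 and 108 with DMSO. INT-777 replicate 3 lay just above DMSO replicate 2, so the groups overlapped. The means were 65.5 ± 5.93 and 84.5 ± 20.4 (SD, n = 3 each), and the log2 change was −0.37 ± 0.17 (edgeR adjusted p = 0.352). With the day as a block it was −0.35 ± 0.07 (edgeR adjusted p = 0.00481). Ratios within days were 0.816, 0.897 and 0.667, and the log2 change was −0.16 without DMSO replicate 3. An antisense gene, AV064505, shares 123 exon bases with Mmp7, and the 2 strand counts together held 1.28 to 1.34 times the read pairs of the strandless count used here.

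Nupr1 (chr7:126623249-126630861, minus strand) had 13.3, 14.5 and 6.93 CPM with INT-777, against 34.8, 32.4 and 18.4 with DMSO. All INT-777 libraries lay below all DMSO libraries, and both groups were lowest on day 3. The means were 11.6 ± 4.08 and 28.5 ± 8.88 (SD, n = 3 each). The log2 change was −1.30 ± 0.38 (edgeR adjusted p = 0.198), and −1.31 ± 0.07 with the day as a block (edgeR adjusted p = 1.02e-08). The ratios within days, 0.383, 0.448 and 0.377, were the lowest of the 7 genes on days 1 and 2.

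**Figure D3:**
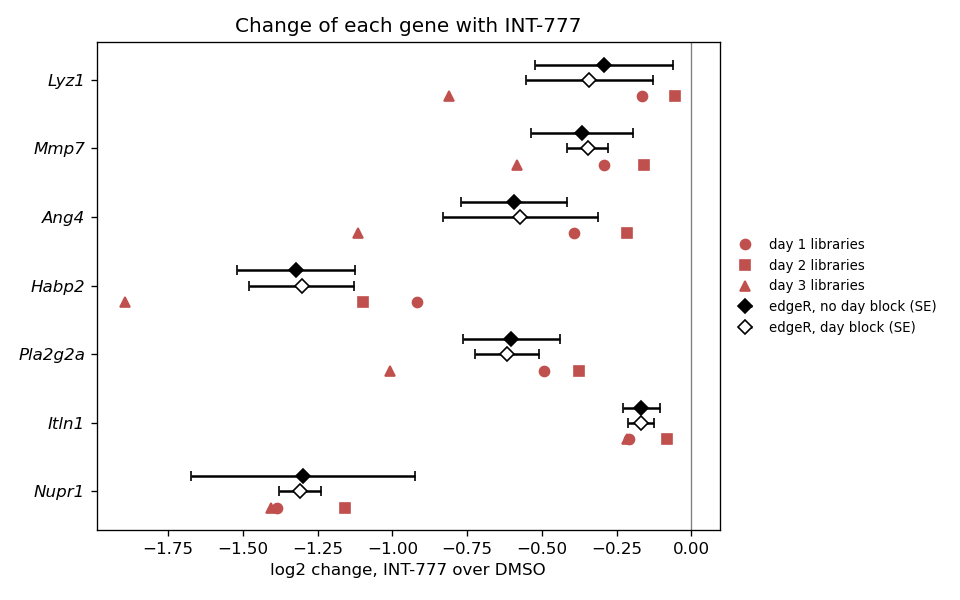
Log2 change of each gene, INT-777 over DMSO, with the SE, from edgeR without and with the day as a block, and the log2 ratio of the 2 libraries of each day. Every value lies below 0, and the day 3 ratio is the lowest in each of the 7 genes, close to that of day 1 in Itln1 and Nupr1.

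In the model of treatment and day, 2 of the 7 genes were called for the day terms (edgeR F-test), a share close to the 20.5% of all tested genes, and the other 5 were not (edgeR adjusted p from 0.188 to 0.903). Against the mean of days 1 and 2, Mmp7 was higher on day 3 (log2 0.40) and Nupr1 lower (log2 −0.93). The F-test of both day terms together gave edgeR adjusted p = 0.00693 for Mmp7 and 1.48e-06 for Nupr1. The day terms are shared by both groups, so a gene that moves unequally or in opposite ways on day 3 need not be called. Ang4 was highest on day 3 with DMSO (250 CPM) and lowest on that day with INT-777 (116 CPM). The ratio of INT-777 to DMSO was lowest on day 3 in all 7 genes, though in Itln1 and Nupr1 it was close to that of day 1. There was 1 library per group on each day, so the difference between days in the response to INT-777 was not tested.

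Likeness of profile was measured as the root mean square difference of centred log2 CPM over the 6 libraries. Among the 7 genes, Mmp7 and Ang4 were the most alike (0.191), and Mmp7 and Nupr1 were furthest apart (0.792). Among at least 10916 other protein-coding genes compared with each, Lyz1 was closest to Defa17 (0.04), followed by H2-DMa and Pcsk5. Defa17 is an α-defensin gene that shares 90.6% of its windows with other defensin genes, so its count is uncertain. The closest genes to Mmp7 were Enpp5, Pde11a and Fam222a, to Ang4 Slc3a1, Pdk4 and Thrb, and to Habp2 S100g, Pigr and Slc2a6. For Pla2g2a they were Itih5, Slc28a3 and Pdgfa, for Itln1 Miga1, Stil and Ptpra, and for Nupr1 Ky, Kcna1 and Barx2.

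Of the other genes of the Paneth cell, none passed without the block for the day (0.763% of all tested genes were called lower and 0.688% higher), and counts with it stand against 10.3% of all tested genes called lower and 11.1% higher. Of 12 regulators of Paneth cells 0 passed in either direction without the block, and 7 were lower and 0 higher with it (median log2 −0.18). Spdef, among those 7, is also counted among the goblet cell markers below. Sox9, which Paneth cell formation needs, had 162 ± 2.80 CPM with INT-777 and 181 ± 9.27 with DMSO (log2 −0.16 ± 0.05, edgeR adjusted p = 0.210, and 0.0173 with the block). Nod2, a sensor of bacterial wall fragments, had 2.06 ± 0.322 and 3.65 ± 0.908 (log2 −0.82 ± 0.22, edgeR adjusted p = 0.136, and 0.00138 with the block). Of 6 tested niche signals 0 passed, and 3, Wnt3, Dll1 and Dll4, were lower and 0 higher with the block (median −0.47). On day 3, against the mean of days 1 and 2, the median log2 was 0.37 for the regulators and 1.74 for the niche signals. It was 1.83 for goblet and 1.95 for enteroendocrine markers, while the 7 genes ran from −0.93 (Nupr1) to 0.40 (Mmp7). Which cells these transcripts came from was not tested. The growth factor Egf had 1.63 ± 0.276 and 2.04 ± 0.150 CPM with INT-777 and DMSO, and Tgfa, a related ligand of the EGF receptor, had 44.2 ± 1.73 and 42.3 ± 2.39, and neither passed in either fit. Of 14 other tested products and surface genes 0 passed, and with the block 8 were lower and 1, Kcnn4, a potassium channel of Paneth cells, was higher (median −0.31). Kcnn4 had 101 ± 11.1 CPM with INT-777 and 68.7 ± 14.9 with DMSO (log2 0.56 ± 0.17, edgeR adjusted p = 0.206, and 9.8e-06 with the block). Dmbt1, a secreted protein that binds bacteria, had 37.3 ± 4.61 CPM with INT-777 and 46.9 ± 2.53 with DMSO (log2 −0.33 ± 0.09, edgeR adjusted p = 0.154, and 0.000457 with the block).

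The integrated stress response, in which Nupr1 is induced through Atf4, had 1 of 12 tested genes lower, Chac1 (3.92 ± 0.227 CPM with INT-777 and 6.85 ± 0.889 with DMSO, log2 −0.80 ± 0.13, edgeR adjusted p = 0.0322). Chac1 degrades glutathione. Over all tested genes, 0.763% were called lower. With the block 3 of the 12 were lower, Chac1, Trib3 and Vldlr, and 2 higher, Psat1 and Phgdh of serine synthesis, against 10.3% and 11.1% of all tested genes, and the list median was −0.08. Trib3, a pseudokinase, had 3.41 ± 0.206 CPM with INT-777 and 5.03 ± 0.788 with DMSO (edgeR adjusted p = 0.129, and 0.00353 with the block). Atf4 itself had 321 ± 5.93 CPM with INT-777 and 312 ± 5.64 with DMSO (log2 0.04 ± 0.05, edgeR adjusted p = 0.703).

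Summed markers of goblet cells, enterocytes, enteroendocrine cells and stem cells were lower with INT-777 on each day, as the 7 genes were. Those of tuft, immune and stromal cells were higher on each day. A sum follows its most abundant genes, and the enterocyte sum rested largely on Anpep and the stromal sum on Vim. Fcgbp was the largest part of the goblet sum (3730 CPM with INT-777 and 8575 with DMSO). Chgb (719 and 919) was that of the enteroendocrine sum, and Slc12a2 (1259 and 1485) that of the stem cell sum. Negative log2 changes were found in 9 of 12 enteroendocrine and 8 of 12 stem cell markers. All 14 tested goblet cell markers had negative log2 changes (median −0.90), 0 passed without the block and 12 were lower with it. Those of smallest p without the block were the mucin gene Muc2 (log2 −1.75 ± 0.63, edgeR adjusted p = 0.280, and 0.0907 with the block) and Ramp1 (log2 −2.32 ± 0.76, edgeR adjusted p = 0.232, and 1.09e-06 with the block). Their summed level was 3156, 3050 and 12820 CPM with INT-777, against 5858, 5769 and 28871 with DMSO, so it was lower with INT-777 on each day and far higher on day 3 in both groups. The summed level of stem cell markers was 2604, 2579 and 2160 CPM with INT-777, against 3009, 2984 and 2620 with DMSO, and of the 12 markers 1, Smoc2, was called lower without the block (log2 −0.45 ± 0.05, edgeR adjusted p = 0.0141) and 7 lower and 2 higher with it. Axin2, a Wnt target, was among the lower with the block (log2 −0.19, edgeR adjusted p = 0.00310). Enterocyte markers summed to 837, 843 and 706 CPM with INT-777 and 1362, 1398 and 1014 with DMSO. Anpep alone had 230 ± 56.6 CPM with INT-777 and 728 ± 156 with DMSO, so the lower sum rests largely on this gene. Alpi, at 137 ± 12.2 and 79.4 ± 18.2 CPM, went the other way, and 7 of the 11 tested had negative log2 changes. Of the 11, 1, Anpep, was lower (log2 −1.66 ± 0.25, edgeR adjusted p = 0.0467), and 2 were higher and 6 lower with the block, with Alpi among the higher (log2 0.81, edgeR adjusted p = 0.000136).

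Enteroendocrine markers summed to 627, 642 and 2269 CPM with INT-777, against 667, 679 and 2889 with DMSO. Of the 12, 0 passed without the block, and with it 1, Pyy, was higher (log2 0.76, edgeR adjusted p = 0.00167) and 5 were lower. Sst had 9.60 ± 6.09 CPM with INT-777 and 13.4 ± 13.5 with DMSO. Tuft markers (7 of 10 tested, median log2 0.24) summed to 30.1, 30.5 and 40.9 CPM with INT-777, against 28.3, 26.1 and 35.7 with DMSO, with Il25 at 0 in all libraries. None of the 7 passed without the block, and 1 was higher with it. Their transcription factor Pou2f3 had 12.2 ± 0.637 CPM with INT-777 and 10.5 ± 0.444 with DMSO, and Ltc4s had 0.551 ± 0.0951 and 0.354 ± 0.176. Immune markers (4 of 14 tested) summed to 4.28, 5.25 and 11.9 CPM with INT-777 and 4.08, 4.71 and 11.1 with DMSO. Cd68 had 3.43 ± 0.342 CPM with INT-777 and 3.08 ± 0.288 with DMSO, and Cd52 had 0.248 ± 0.0667 and 0.332 ± 0.183. Stromal markers (4 of 9 tested, median log2 −0.22) summed to 11.0, 10.5 and 42.8 with INT-777 and 9.71, 8.31 and 33.7 with DMSO. Most of that sum was Vim, with 19.0 ± 16.9 CPM with INT-777 and 14.3 ± 12.9 with DMSO. Of the 4 tested stromal markers, 3 had negative log2 changes. Col1a1 had 0.467 ± 0.178 CPM with INT-777 and 0.722 ± 0.181 with DMSO, and Pdgfrb had 0.475 ± 0.219 and 0.607 ± 0.0886. Of the tested immune and stromal markers, 0 passed without the block, and 1 stromal marker, Vim, was higher with it. The part of these cell types in the changes of the 7 genes was not tested.

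**Figure D4:**
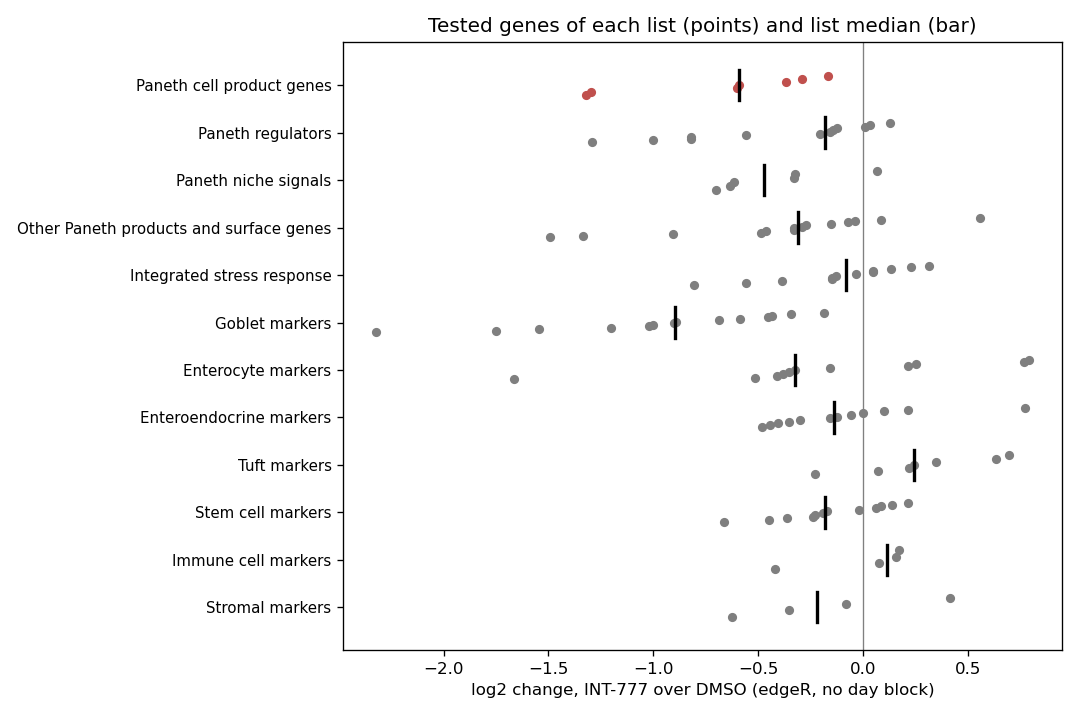
Log2 change, INT-777 over DMSO (edgeR without the day as a block), of each tested gene of the lists (points) with the list median (bar). The 7 Paneth cell product genes have a median of −0.59, goblet markers −0.90 and stem cell markers −0.18.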

How the data were processed

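The authors deposited, for each library, the raw count of read pairs for every gene, without normalisation, in the gene table that STAR writes. Per the submitters' processing notes, the tools were FastQC, STAR 2.73a and edgeR 3.24.3, and the builds GRCm38 and mm10. Which annotation release was counted is not stated in those notes. The strandless counts were used. Lines that name no gene (24.4 to 25.5% of 60717640 to 63604301 read pairs) stayed out of library sizes and tests. Of 54838 IDs, 54809 matched GENCODE M21.

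Tests ran in edgeR 4.0.16 under R 4.3.3 (filterByExpr by group, TMM, robust quasi-likelihood test, treatment as the single term, Benjamini-Hochberg adjusted p under 0.05), limma 3.58.1 and DESeq2 1.42.0, and drawn with Python 3.11.15, numpy 2.4.6 and matplotlib 3.10.9. Days were tested by the F-test of the day terms. The SE given with an edgeR log2 change was worked back from its test. It is the absolute log2 change divided by the square root of the quasi-likelihood F statistic. The fit without the day was set as the main one, since the labels do not state a design for the authors' own edgeR run. The scripts were tested on simulated data. Alternatives were the day as a block, other scalings, tools, filters and strand counts, RNA integrity as a covariate, and leaving out each library or day. DESeq2 and limma-voom with the block, and the block without each day, were added after the data were seen. A contrast of the INT-777 response on day 3 with that on days 1 and 2 was also fitted after the data were seen. It is not used, since the split was taken from the data, day 3 has 1 library per group and its spread came from day 1 against day 2 alone.

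Libraries are paired by day, because each description names the day behind its replicate number. The correlation of their deviations from the group means was 0.329 on day 1, 0.369 on day 2 and 0.632 on day 3. Across days 1 and 2 it was as high (0.336 and 0.363), and between day 3 and the others it ran from −0.487 to −0.435, so the values set day 3 apart and do not tell days 1 and 2 apart. The members and lists were chosen with earlier results of these data known. Named genes are the 7 members, the 2 of smallest p in each list, the 3 genes of closest profile to each member, and the relatives Lyz2, Ang and Ang2. Others were chosen after their values were seen.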

Additional observations from a re-analysis of the deposited data

How the results depend on the processing

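All 7 genes had negative log2 changes in all 25 alternatives each, and none was called higher in any. With the day as a block 3415 genes of all tested and 5 of the 7 were called, against 232 and 1 without it, while the biological coefficient of variation shared by all genes was 0.048 with the block and 0.149 without. With DESeq2 the numbers were 798 and 4, with RNA integrity as a covariate 2036 and 2, and with no filter 435 genes and 1 of the 7. Leaving out 1 library gave 8 to 273 genes and 0 to 1 of the 7. The lowest counts of all genes were 8, 9, 14 and 19 without INT-777 replicate 1, INT-777 replicate 2, DMSO replicate 1 and DMSO replicate 2. Without day 1 the counts were 0 and 0 (edgeR alone, with 1189 genes at p under 0.05 before adjustment), without day 2 they were 3 and 0, and without day 3 they were 4292 and 7. Alternatives added after the data were seen gave, with the day as a block, 2274 and 5 (DESeq2), 3329 and 7 (limma-voom), 3247 and 4 (without day 1), 1940 and 7 (without day 2) and 3853 and 7 (without day 3). The number of the 7 that differed between days, 2, lay between 2 and 6 without 1 library, with 6 without INT-777 replicate 3, 5 without DMSO replicate 3 and 4 without INT-777 replicate 1, and was 3 with limma-voom and with no filter. The causes were not tested. Days 1 and 2 were nearly alike.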
